A study of Mus musculus with 15 samples.

Results

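VSG159 is a glucocorticoid known here only by its code. Its effect was measured in the mouse line RAW264.7, whose cells resemble macrophages, as the comparison of the 3 arrays titled VSG159 with the 3 arrays titled EtOH and DMSO, which are 6 of the 15 arrays of the series. All noncontrol probes entered, and the arrays were taken by sample title. VSG159 was given at 100 nM for 1 h before lipopolysaccharide (LPS, a bacterial cell wall component) at 1 ug per ml for 16 h, and total RNA was hybridised to one-colour Agilent arrays. Cells of the vehicle group received ethanol and DMSO, the solvents. The treatment protocol with LPS is attached to every sample, but the labels of the vehicle group give no more than the solvents. LPS in vehicle cells is therefore taken from the protocol. The other groups, each with 3 arrays and with the steroid at the same 100 nM, were VSG158 (also known here by its code), FF (fluticasone furoate) and DEX (dexamethasone), the last 2 being synthetic glucocorticoids. The design text speaks of duplicates while the labels give 3 replicates a group, and nothing says that replicates were separate cultures, so p-values measure the spread between these samples, which may be technical. All samples come from 1 cell line.

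LPS is sensed by Toll-like receptor 4, which drives NF-kB and AP-1 to switch on cytokine genes and, through the adaptor TRIF and the factor IRF3, interferon beta, whose autocrine action through STAT2 and IRF9 switches on the interferon-stimulated genes. Glucocorticoids bind the glucocorticoid receptor, a nuclear receptor that raises genes such as Fkbp5 and Tsc22d3 and lowers many genes driven by NF-kB, AP-1 and interferon factors. Macrophages exposed to LPS are also known to stop dividing and to shift their metabolism towards glycolysis.

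The arrays lay on 2 slides. VSG159 replicates 1 and 2 were at positions 7 and 8 of slide 1, VSG159 replicate 3 was at position 1 of slide 2, and the vehicle arrays were at positions 1 to 3 of slide 1. Within slide 1, group and position therefore cannot be told apart, and VSG159 replicate 3 differs from vehicle in slide. The scanner software marked 541, 559 and 31 spots as non-uniform on VSG159 replicates 1, 2 and 3, and 38 to 64 spots on the vehicle arrays. Arrays of 1 group correlated at 0.972 or higher over the series. All 11 macrophage markers were well above background, with a summed scaled signal of 97364 to 104792 with VSG159 and 97628 to 109560 with vehicle. Few bright probes make up most of that sum. Single markers differed in both directions, with Csf1r (log2 1.36) and Itgam (0.99) higher and Fcgr1 (-1.69), Msr1 (-0.88), Spi1 (-0.74) and Mpeg1 (-0.54) lower. Other probes of Msr1 and Itgam gave 0.10 and 0.32 and were not called. No marker of epithelial cells was above background on at least 2 arrays of a group (0 of 5), and Ly6g, S100a9 and Cd8a were above background on no array. Cd4, Elane and S100a8 were above background on all arrays of both groups and were not called. Of the markers of other cell types, Dcn was higher (1.16), and Cd3d (-1.85), Ms4a1 (-0.95), Pax5 (-0.91), Camp (-0.72), Kdr (-1.33), Epor (-2.52), Ctsk (-0.59) and Dcstamp (-0.70) were lower. The summed T cell markers reached 3050 to 10795 with VSG159 and 2978 to 4759 with vehicle. The summed erythroid markers reached 225 to 1808 with VSG159 and 217 to 366 with vehicle, and their part in the results was not tested.

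Close to every second gene was called different between the VSG159 and vehicle arrays, a share that depended on the scaling and the covariates. Of 19499 genes tested, 8596 were called (44.1%). Of these, 3723 were higher with VSG159 (19.1%) and 4873 were lower (25%), at an adjusted p below 0.05 (limma, Benjamini-Hochberg). At least 2-fold changes numbered 1532 higher (7.86%) and 1809 lower (9.28%). The median gene differed by -0.06 on the log2 scale. The arrays of the 2 groups did not overlap in 9901 genes (50.8%). Scaling the arrays to their medians in place of the 75th percentile moved the median gene to 0.01 and called 4753 genes, 2461 higher and 2292 lower. A fit with slide and array position as covariates called 2828, 1533 higher and 1295 lower. Of these, 2726 were among the 8596 and had the same direction, 191 of the 8596 had the opposite sign, and 1989 of the 3341 called genes with at least 2-fold change were called in the same direction. With VSG159 replicate 3 alone against vehicle, 5912 genes were called, 3143 higher and 2769 lower.

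**Figure D1:**
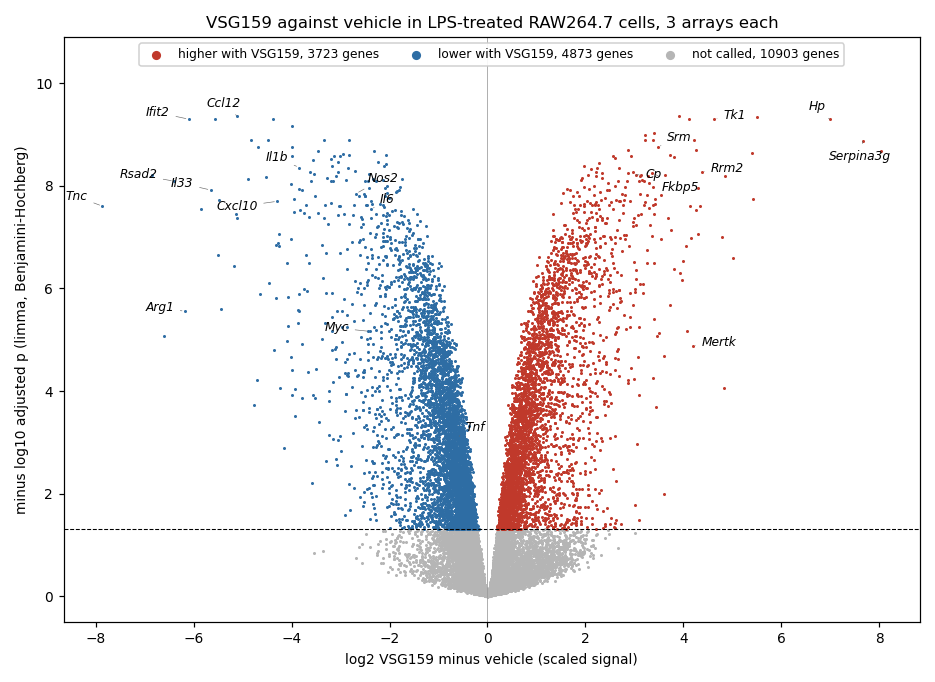
Each point is 1 of 19499 genes, with the log2 difference VSG159 minus vehicle on the x axis and minus log10 of the limma adjusted p on the y axis. The 3723 higher (red) and 4873 lower (blue) genes lie above the dashed line at an adjusted p of 0.05, Hp standing farthest right among genes measured in both groups and Rsad2 far left.

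The largest rise among genes measured in both groups was that of Hp, which encodes haptoglobin, a plasma protein that binds free haemoglobin. On a scale where the 75th percentile of each array is 100, called scaled signal here, its level was 1831, 2051 and 2886 on VSG159 replicates 1 to 3, against 14.7, 19.2 and 18.8 on the vehicle arrays. Every VSG159 array was far above every vehicle array, a 127-fold rise (log2 6.99, SE 0.19, n = 3 arrays each, adjusted p = 5e-10 by limma). Rsad2, which encodes the antiviral enzyme viperin, showed the largest fall among genes measured in both groups, to 362, 172 and 278 with VSG159, against 20646, 21728 and 23140 with vehicle. With vehicle it was among the bright genes of the array, and the fall was 84.3-fold (log2 -6.40, SE 0.27). The probe of Hp lies at chr8:112099045-112099104 and that of Rsad2 at chr12:27127859-27127918, in the mm9 coordinates of the array files.

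Other genes among the 30 largest rises were D17H6S56E-5 at a log2 difference of 4.22, Wfdc21 at 3.72 and Dut, the dUTPase that keeps uracil out of DNA, at 3.54. The recombination gene Rad54l was at 3.69 and the kinetochore gene Ska1 at 3.32. Other probes of Rad54l gave 3.02, which was called, and -0.03, which was not. Among the 30 largest falls were Dok7 at -4.69, Tgm1, a transglutaminase, at -4.52, Prss46 at -4.09, Pgf, placental growth factor, at -3.86, Gipr, the receptor of the gut hormone GIP, at -3.84 and Cda, cytidine deaminase, at -3.74. Each value is that of the brightest tested probe of the gene, unless another probe is named. Other probes of Dok7 gave -2.51 and -1.87, both called. The called genes selected for naming included 165 with other tested probes, and of these 227 probes 167 were called in the same direction, 31 had the same sign and were not called, and 29 had the opposite sign, of which 4 were called. Beyond the named genes, 185 of the 8596 called genes took the opposite sign with the mean of all tested probes of a gene.

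For some genes the probe was well above background in 1 group alone, and for them only a bound on the change can be given, the mean of the bright group over the lowest signal that was well above background. Among genes seen with VSG159 alone, Serpina3g, a protease inhibitor of activated leukocytes, had 277, 217 and 293 with VSG159, against 1.25, 1.96 and 0.859 with vehicle, and was at least 59.8-fold higher. Arl14epl was at least 77.0-fold higher. Of the 12 genes with the largest bounds in this direction, Pbk, Ankle1, Ttk, Depdc1b, Aspm, Fancb, Kif14 and Cdca2 act in cell division or DNA repair, at bounds from 5.30-fold (Cdca2) to 24.1-fold (Pbk), and Batf3, a transcription factor of dendritic cells, was at least 9.21-fold higher. Another probe of Kif14 rose by 0.81, against 3.73 on the probe used. E2f7 is given no direction, as another probe of it was at -0.74 (adjusted p = 0.0538 by limma). In the other direction Tnc, the matrix protein tenascin C, was at least 53.0-fold lower (1.00, 0.790 and 0.668 with VSG159, against 187, 152 and 234 with vehicle). Arg1, the arginase of alternatively activated macrophages, was at least 18.7-fold lower, Ifnb1, the interferon beta gene, at least 9.53-fold lower, and Hamp, the gene of the iron hormone hepcidin, at least 8.09-fold lower. Flrt3, Krt23, Dusp13, Akap2, Inhba, Csn1s1, Npy and Carmil1 had bounds from 6.57-fold (Carmil1) to 31.4-fold (Flrt3). The counts and medians of the gene lists below include genes seen in 1 group alone. Such genes were 6 of 40 cytokine ligands, 4 of 48 cytokine receptors, 4 of 21 chemokines, 5 of 23 chemoattractant receptors and 6 of 70 mitosis genes. They were also 6 of 31 complement and coagulation genes, 3 of 33 metalloproteases, cathepsins and inhibitors, and 3 of 21 acute-phase and Serpina3 genes. Each other list had at most 2. The direction of such genes is largely fixed by being seen in 1 group alone, and their log2 values rest partly on signal near background.

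**Figure D2:**
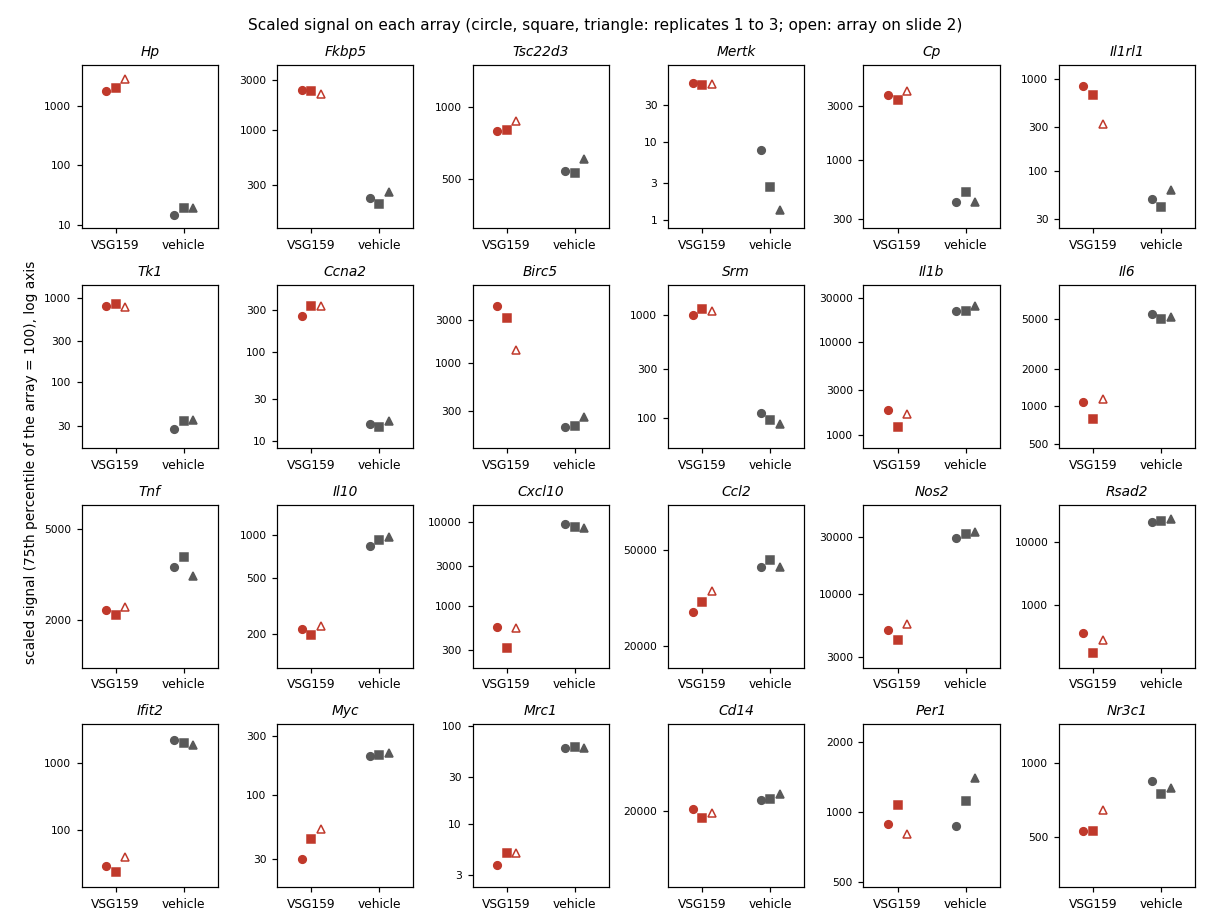
Scaled signal (75th percentile of the array = 100, log axis) of 24 genes on each VSG159 array (red, left) and each vehicle array (grey, right), with replicates 1 to 3 as circle, square and triangle and the array on slide 2 open. The groups are apart in the panels from Hp to Mrc1, lie close together in Cd14 and overlap in Per1, and VSG159 replicate 3 is the lowest VSG159 array for Il1rl1 and Birc5.

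On a list of genes known to be induced by glucocorticoids, 36 were tested, of which 11 rose (30.6%) and 13 fell (36.1%). Over all tested genes the shares were 19.1% and 25%, which are the base for the list counts below too. The median log2 difference of the list was 0.02, against -0.06 over all genes. Fkbp5, a chaperone of the glucocorticoid receptor and its textbook target, had 2415, 2322 and 2204 with VSG159, against 225, 197 and 254 with vehicle. It rose 10.3-fold with no overlap (log2 3.37, SE 0.13, adjusted p = 5.55e-09). Angptl4, an inhibitor of lipoprotein lipase, rose by 3.18 on the log2 scale (SE 0.25), with 126, 120 and 69.2 against 10.8, 8.68 and 15.1. Mertk, the receptor by which macrophages recognise dying cells, had 56.4, 53.5 and 55.0 with VSG159, against 7.93, 2.62 and 1.32 with vehicle, where it was above background on 1 of 3 arrays, so that its rise of 4.19 (SE 0.46) is poorly bounded. Tsc22d3, which encodes the anti-inflammatory protein GILZ, rose by 0.55 (SE 0.11) and Klf9 by 0.47 (SE 0.11), and another probe of each was not called (0.08 and 0.39).

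Other genes of that list were lower. Ddit4, an inhibitor of mTOR, was lower at a log2 difference of -2.20 (SE 0.18), Cdkn1a, the CDK inhibitor p21, at -2.14 (SE 0.12, and -0.53 on another probe, adjusted p = 0.0595) and Rgs2 at -2.13 (SE 0.11). Dusp1, a MAPK phosphatase, was lower at -0.50 (SE 0.13). Per1, a clock gene, had 892, 1067 and 806 with VSG159, against 873, 1119 and 1398 with vehicle, and the groups overlapped (log2 -0.28, SE 0.18, adjusted p = 0.245). Of 15 clock genes tested, 8 were lower and 1 was higher (median -0.80). Bhlhe40 was lower at -2.63 (SE 0.16) and Nr1d2, the repressor REV-ERB beta, at -2.94 (SE 0.25), while Nfil3 rose by 0.51 (SE 0.11).

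The receptor gene Nr3c1 had 532, 533 and 646 with VSG159, against 848, 754 and 796 with vehicle. The fall was 0.49 (SE 0.13, adjusted p = 0.00725 by limma), and another probe was called lower at -1.11. On the probe used, the log2 difference was -0.31 in replicate 3 alone and -0.59 in replicates 1 and 2. Among 20 genes of the receptor, its chaperones and steroid handling, 4 were higher and 8 lower. Fkbp4, the cochaperone that carries the bound receptor to the nucleus, rose by 1.36 (SE 0.11) and the drug pump gene Abcb1b by 1.17 (SE 0.19), whereas the chaperone Hspa8 was lower at -1.23 (SE 0.07) and the coactivator Ncoa3 at -1.33 (SE 0.16, and -0.11 on another probe, not called). The heat-inducible chaperones Hspa1a and Hspa1b, near-identical copies that probes may not separate, were lower at -4.28 (SE 0.27) and -4.25 (SE 0.25).

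Cytokine genes were mostly lower. Of 40 tested genes of cytokine ligands, 30 fell, 1 rose and 9 were not called, and the median was -1.43. Il1b, the gene of interleukin 1 beta, had 1858, 1215 and 1674 with VSG159, against 21397, 21416 and 24340 with vehicle. The groups were far apart (log2 -3.84, SE 0.15, a 14.3-fold fall). Il33, an alarmin of the same family, had 240, 143 and 223 against 8872, 9859 and 11137, a 50.3-fold fall. Il1a was lower at -4.02 (SE 0.18), Il19 at -3.96 (SE 0.21), Il15, a growth factor of NK cells, at -3.63 (SE 0.14), Il1f6 (interleukin 36 alpha) at -2.42 (SE 0.10) and Il6 at -2.38 (SE 0.12). The fall was not uniform across proinflammatory ligands. Tnf had 2215, 2108 and 2281 with VSG159, against 3405, 3757 and 3109 with vehicle, which is a 1.55-fold fall with no overlap (log2 -0.63, SE 0.12, adjusted p = 0.000809). Il10, the main anti-inflammatory cytokine of macrophages, was lower too, at 218, 197 and 229 against 843, 928 and 971. The single ligand that rose was Il16, a T cell attractant (log2 1.12, SE 0.13).

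Among 48 cytokine receptors, 9 rose, 19 fell and 20 were not called (median -0.31). Il1rl1, the receptor for interleukin 33, moved opposite to its ligand. It had 835, 667 and 322 with VSG159, against 49.6, 40.1 and 61.4 with vehicle, so the groups were apart but VSG159 replicate 3 was well under replicates 1 and 2 (log2 3.51, SE 0.36, adjusted p = 7.33e-06). In replicate 3 alone the rise was 2.70, and in replicates 1 and 2 it was 3.91. Il1rl2, the interleukin 36 receptor, was at least 2.34-fold higher, and Il12rb1 rose by 1.29 (SE 0.09). Tnfrsf9, the costimulator 4-1BB, was lower at -4.90 (SE 0.21), Cd40 at -2.10 (SE 0.17), Il18bp, which neutralises interleukin 18, at -2.07 (SE 0.14) and Csf2rb2 at -2.06 (SE 0.12).

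Of 21 chemokines, 12 fell and 2 rose (median -0.58). The falls ranged widely between ligands of the same receptors. Ccl12 and Ccl2 both act on CCR2, and Ccl12 had 44.4, 36.7 and 40.3 with VSG159, against 1446, 1525 and 1261 with vehicle (log2 -5.12, SE 0.12), whereas Ccl2 had 27596, 30364 and 33592 against 42275, 45048 and 42143 (log2 -0.50, SE 0.11). Ccl7, another ligand of that receptor, was lower at -2.84 (SE 0.09). Cxcl10, which attracts activated T cells, was lower at -4.29 (SE 0.21), the neutrophil attractants Cxcl2 and Cxcl3 at -1.37 (SE 0.12) and -1.66 (SE 0.17), and Ccl5 at -1.14 (SE 0.11). Pf4, platelet factor 4, rose by 1.37 (SE 0.17). Of 23 chemoattractant receptors, 11 fell and 1 rose (median -0.90), among the falls Ccrl2 at -3.19 (SE 0.14), the complement receptor C3ar1 at -2.20 (SE 0.17) and Ptafr, the receptor of platelet-activating factor, at -2.09 (SE 0.09). Ccr3 was at least 4.41-fold lower.

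In the list of Toll-like receptors and adaptors, 9 of 37 rose (24.3%) and 15 fell (40.5%), with a median of -0.20. Over all tested genes the shares were 19.1% and 25%. Cd14, the LPS co-receptor, had 20370, 18945 and 19691 with VSG159, against 21813, 22048 and 22896 with vehicle, and was not called (log2 -0.18, SE 0.12). The probe used for Tlr4 was called higher (log2 0.42, SE 0.15), but 2 other probes of the gene were called lower (-0.59 and -0.68), so no direction is given. Tlr3, the sensor of double-stranded RNA, was lower at -2.24 (SE 0.13), Ripk2 at -1.64 (SE 0.12) and Traf6 at -1.60 (SE 0.15), while Irak3, a brake on Toll-like receptor signalling, rose by 1.05 (SE 0.12). Of 25 NF-kB subunits and inhibitors, 16 fell and 2 rose (median -0.49). Nfkbia, the inhibitor that NF-kB itself induces, was lower at -0.58 (SE 0.13), Rela at -0.67 (SE 0.09) and Tnip3 at -1.48 (SE 0.13). Nfkbid had 1796, 1761 and 938 with VSG159, against 429, 530 and 606 with vehicle, again with replicate 3 lowest (log2 1.48, SE 0.24, and 0.27 on another probe, not called).

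Of 34 AP-1, EGR and other early-response factors, 24 fell and 4 rose (median -0.93). Atf3 had 1018, 862 and 1073 with VSG159, against 7553, 9064 and 7888 with vehicle (log2 -3.05, SE 0.11). Maf was lower at -2.38 (SE 0.13), Ier3 at -2.33 (SE 0.08) and Maff at -1.82 (SE 0.13), and Cebpa, a factor of myeloid differentiation, rose by 0.86 (SE 0.17). Among 28 MAPK phosphatases and mRNA decay factors, which dampen the same signals, 17 fell and 2 rose (median -0.53). Dusp10 was lower at -3.61 (SE 0.15), Dusp14 at -2.82 (SE 0.10), Dusp5 at -2.64 (SE 0.21), Dusp4 at -1.90 (SE 0.10) and Zfp36, which encodes the mRNA decay factor tristetraprolin, at -1.39 (SE 0.15). For Spry2, 730, 1311 and 283 with VSG159 overlapped with 110, 174 and 328 with vehicle, and another probe was called lower (-0.69).

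The interferon-stimulated genes fell almost as a whole. Of 65 tested antiviral genes, 57 were lower, 1 higher and 7 not called (median -1.32), and all 18 tested interferon-induced GTPases were lower (median -2.12). Ifit2 had 29.0, 23.5 and 39.1 with VSG159, against 2260, 2033 and 1866 with vehicle, a 68.5-fold fall. Cmpk2, the neighbour of Rsad2, was lower at -5.56 (SE 0.15), Mx1 at -4.83 (SE 0.15), Ifit3 at -4.37 (SE 0.12) and its close copy Ifit3b at -4.48 (SE 0.14). Among the GTPases, which attack vacuoles that hold pathogens, Iigp1 was lower at -4.25 (SE 0.27), Gbp2b at -4.00 (SE 0.14), Tgtp2 at -3.99 (SE 0.11) and Gbp2 at -3.27 (SE 0.14). Ifi27 rose by 0.53 (SE 0.08). With slide and array position as covariates, 45 of the 65 antiviral genes and 14 of the 18 GTPases were lower, but that fit cannot separate group from position.

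A known control element of such genes is the interferon-stimulated response element, which STAT2, IRF9 and other IRF factors bind. Windows of 250 bases before to 50 bases after RefSeq starts (GRCm38.p6) were available for 11723 of the 19499 tested genes. The element was searched on both strands as GAAA, any 2 bases and GAAA, and matches could overlap each other or other motifs. It was present for 24 of the 48 antiviral genes with a window (50%, 65 tested). For the GTPases it was present for 9 of the 10 with a window (18 tested). The share was 3.96% of all tested genes with a window and 3.99% of all 27025 genes with one. Genes that fell at least 2-fold held it in 7.55% of 1126 cases and genes that rose at least 2-fold in 3.82% of 1074. The stretches below run from 20 bases before the first match to 20 after the last, 5′ to 3′ in the direction of the gene, with matches in capitals. They are shown because these genes lie among the falls described here and hold a match before the start. A match is a description of letters, not of a bound site.
Rsad2, chr12:26456543-26456592, minus strand: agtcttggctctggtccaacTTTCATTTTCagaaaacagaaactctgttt
Ifit3, chr19:34583353-34583436, plus strand: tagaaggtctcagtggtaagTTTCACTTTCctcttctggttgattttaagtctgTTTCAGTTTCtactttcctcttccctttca
Ifit1, chr19:34640765-34640833, plus strand: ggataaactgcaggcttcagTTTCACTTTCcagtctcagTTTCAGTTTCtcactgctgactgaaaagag
Cxcl10, chr5:92349073-92349122, minus strand: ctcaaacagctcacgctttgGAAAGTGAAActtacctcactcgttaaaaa
Gbp2, chr3:142620584-142620633, plus strand: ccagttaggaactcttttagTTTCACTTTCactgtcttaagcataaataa
In both Ifit genes the match occurs 2 times before the start. Ifit1 had 302, 293 and 432 with VSG159, against 4195, 3785 and 4020 with vehicle, and Gbp2 had 120, 81.0 and 91.7 against 895, 1042 and 861, each without overlap.

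The interferon factors themselves were lower. Of 34 IRF, STAT, JAK and SOCS genes, 24 fell and 3 rose (median -0.70). Irf1 had 319, 316 and 384 with VSG159, against 1613, 1674 and 1629 with vehicle (log2 -2.27, SE 0.10). Stat2 was lower at -1.77 (SE 0.13) and Irf5 at -1.39 (SE 0.11). Irf7, the amplifier of the interferon response, was bright in both groups, at 30996, 30112 and 30857 against 45103, 48642 and 51989 (log2 -0.66, SE 0.23, adjusted p = 0.0380 by limma). Another probe of Irf7 was called lower at -1.27. Cish was lower at -2.87 (SE 0.28) and Socs3, a feedback inhibitor of cytokine receptors, at -1.10 (SE 0.10). Of 26 nucleic acid sensors and their kinases, 13 fell and 3 rose (median -0.40). Among them Trex1, a DNA exonuclease, was lower at -1.80 (SE 0.12) and Ddx58, which encodes RIG-I, at -0.90 (SE 0.08).

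Antigen presentation followed the same direction. Of 27 genes of MHC class I presentation, 19 fell and none rose (median -0.68), with Tap1, the peptide transporter, at -1.51 (SE 0.10), the transactivator Nlrc5 at -1.20 (SE 0.12) and H2-T22 at -1.57 (SE 0.12). The H2 genes are close copies of each other, and their probes may share target. Of 28 genes of MHC class II and costimulation, 17 fell and 3 rose (median -0.62). Cd83, a maturation marker, had 216, 179 and 256 with VSG159, against 1987, 1866 and 1947 with vehicle (log2 -3.17, SE 0.12). Cd274, the checkpoint ligand PD-L1, was lower at -1.73 (SE 0.11) and Cd86 at -1.15 (SE 0.10), while Havcr2, the checkpoint receptor TIM-3, rose by 0.86 (SE 0.10).

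Of 32 genes of nitric oxide, arginine and polyamine metabolism, 14 fell and 7 rose (median -0.18). Nos2, the inducible nitric oxide synthase, had 5007, 4143 and 5633 with VSG159, against 29635, 31980 and 32937 with vehicle, a 6.44-fold fall. Among the polyamine enzymes, Srm, which makes spermidine, had 999, 1165 and 1104 against 113, 95.5 and 86.6 (log2 3.48, SE 0.11) and Amd2 rose by 1.39 (SE 0.12), while Odc1, the first enzyme of the pathway, was lower at -1.29 (SE 0.11) and Smox, which oxidises spermine, at -3.99 (SE 0.13). Of 21 prostaglandin and leukotriene enzymes, 9 fell and 5 rose (median -0.32). Ptgs2, the inducible cyclooxygenase, was lower at -2.58 (SE 0.21), and the rises were led by Pla2g7 at 1.74 (SE 0.11, and 0.55 on another probe, not called) and Alox5, which starts leukotriene synthesis, at 1.22 (SE 0.13). Of 25 inflammasome and cell death genes, 14 fell and 2 rose (median -0.50), with Nod2 at -1.45 (SE 0.10), Casp1 at -0.96 (SE 0.07) and Nlrp1a at 1.09 (SE 0.13, and 0.17 on another probe, not called).

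**Figure D3:**
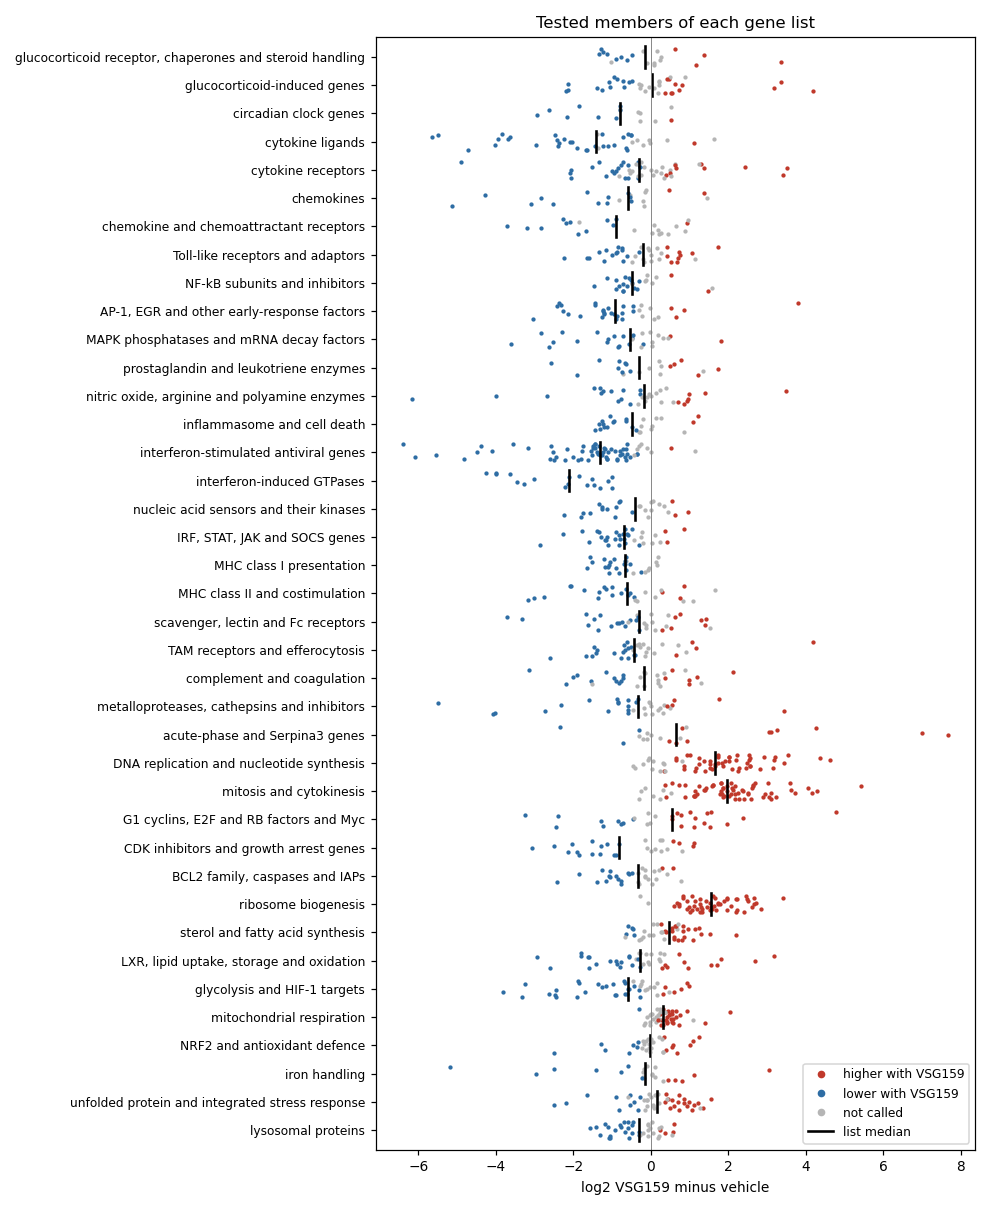
Each point is a tested member of 1 of 39 gene lists, placed by its log2 difference VSG159 minus vehicle, in red where higher, blue where lower and grey where not called, with a black bar at the list's median. The bars lie right of 1 for DNA replication, mitosis and ribosome biogenesis and left of -1 for cytokine ligands, interferon-stimulated antiviral genes and interferon-induced GTPases.

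Surface receptors of macrophages gave a mixed picture. Of 34 scavenger, lectin and Fc receptors, 16 fell and 7 rose (median -0.32). Mrc1, the mannose receptor often used to mark alternative activation, had 3.79, 4.95 and 4.99 with VSG159, where 2 of 3 arrays were above background, against 59.2, 60.6 and 59.0 with vehicle (log2 -3.71, SE 0.18). Clec7a, the beta-glucan receptor Dectin-1, was lower at -3.32 (SE 0.17) and Fcgr1 at -1.69 (SE 0.10), while Pilra and Pilrb1, paired receptors of myeloid cells, rose by 1.42 (SE 0.10) and 1.40 (SE 0.12). Of 33 genes of TAM receptors and efferocytosis, 17 fell and 4 rose (median -0.43), and the 2 TAM receptors named differed, with Axl at -1.68 (SE 0.17) and Mertk higher as given above. Abca1, the cholesterol exporter, had 124, 138 and 142 with VSG159, against 935, 680 and 848 with vehicle (log2 -2.60, SE 0.20).

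Of 31 complement and coagulation genes, 12 fell and 6 rose (median -0.19). Procr, the endothelial protein C receptor, was lower at -3.14 (SE 0.11), Serpinb2 at -2.01 (SE 0.12) and Cfb, complement factor B, at -1.55 (SE 0.16), and Itgam rose by 0.99 (SE 0.09, and 0.32 on another probe, not called). Of 33 metalloproteases, cathepsins and inhibitors, 16 fell and 5 rose (median -0.33). The collagenases moved in opposite directions. Mmp13 had 7.43, 4.71 and 7.43 with VSG159, against 296, 271 and 290 with vehicle (log2 -5.48, SE 0.26), and Mmp8 had 88.5, 93.4 and 96.8 against 7.61, 8.21 and 10.2 (log2 3.43, SE 0.17). Timp1, an inhibitor of both, was lower at -4.01 (SE 0.24), Mmp12 was at least 4.46-fold lower, and Mmp9 rose by 0.58 (SE 0.09).

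Acute-phase and Serpina3 genes were the inflammatory list with a positive median (0.66), with 10 of 21 tested members higher, 3 lower and 8 not called. Beside Hp and Serpina3g, Cp, which encodes the ferroxidase ceruloplasmin, had 3753, 3376 and 4053 with VSG159, against 426, 519 and 421 with vehicle (log2 3.04, SE 0.12), and of its 4 other probes 3 were called higher (1.68 to 2.66) and 1 gave 0.12 and was not called. Serpina3f rose by 4.26 (SE 0.14) and Saa2, a serum amyloid A gene, had 110, 105 and 148 with VSG159, against 16.9, 12.5 and 12.8 with vehicle, and Serpina3i was at least 2.74-fold higher. Serpina3 and Saa genes are close copies whose probes may share target. Lcn2, the siderophore-binding lipocalin, was bright in both groups and rose by 0.81 (SE 0.12). S100a6 was lower at -0.32 (SE 0.09).

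Genes of cell division rose with a near uniform direction. Of 61 tested genes of DNA replication and nucleotide synthesis, 49 rose and none fell (median 1.66), and of 70 genes of mitosis and cytokinesis, 63 rose and none fell (median 1.96). Tk1, thymidine kinase, had 793, 829 and 762 with VSG159, against 27.6, 34.1 and 35.3 with vehicle, a 24.7-fold rise. Rrm2, the regulated subunit of ribonucleotide reductase, rose by 4.37 (SE 0.17), Ccna2, cyclin A, by 4.29 (SE 0.19), Fbxo5, an inhibitor of the anaphase-promoting complex, by 4.12 (SE 0.11), and Mcm6 and Mcm2, subunits of the replicative helicase, by 2.92 (SE 0.10) and 2.56 (SE 0.09). In mitosis, Espl1, the separase, rose by 3.62 (SE 0.15), Plk1 by 3.11 (SE 0.13) and Cdc20 by 2.40 (SE 0.11). Birc5, survivin, had 4264, 3115 and 1411 with VSG159, against 200, 205 and 258 with vehicle, apart but with replicate 3 lowest. Mki67, the common marker of cycling cells, rose by 1.41 (SE 0.16). In bulk RNA, a larger share of cells in cycle and more RNA per cell cannot be told apart.

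Known promoter elements of genes of these kinds were searched in the same windows on both strands. An E2F site, written as TTTCCCGC or TTTGGCGC, was present for 15 of 51 replication genes (29.4%), against 3.09% of tested genes with a window and 1.80% of all genes with one. The cell cycle genes homology region, which the DREAM complex and its activators read, was searched as TTTGAA and was present for 40 of 58 mitosis genes (69.0%), against 15.9% of tested genes with a window and 20.2% of all genes with one. Its 6 letters are found in many windows. They were also present for 16 of 48 antiviral genes (33.3%) and 5 of 10 GTPases, lists that fell. Cytokine ligands (12.9%) and ribosome biogenesis genes (12.2%) were below the share of tested genes. The stretches are drawn as before, ending at the start where the last match lies near it. They come from genes of the 2 lists that hold a match before the start.
Mcm6 (E2F), chr1:128359725-128359835, minus strand: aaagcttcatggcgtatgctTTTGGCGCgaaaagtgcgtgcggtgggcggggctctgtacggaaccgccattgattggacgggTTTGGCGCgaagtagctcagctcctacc
Mcm7 (E2F), chr5:138172021-138172068, minus strand: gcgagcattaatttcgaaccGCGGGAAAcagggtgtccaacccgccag
Cdc20 (homology region), chr4:118437344-118437381, minus strand: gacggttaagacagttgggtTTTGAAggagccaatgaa
Ube2c (homology region), chr2:164769880-164769925, plus strand: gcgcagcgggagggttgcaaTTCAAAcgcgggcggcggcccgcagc
Mcm6 had 3199, 3205 and 2798 with VSG159, against 416, 384 and 411 with vehicle, and Cdc20 had 260, 289 and 294 against 50.3, 52.9 and 56.9, both without overlap.

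**Figure D4:**
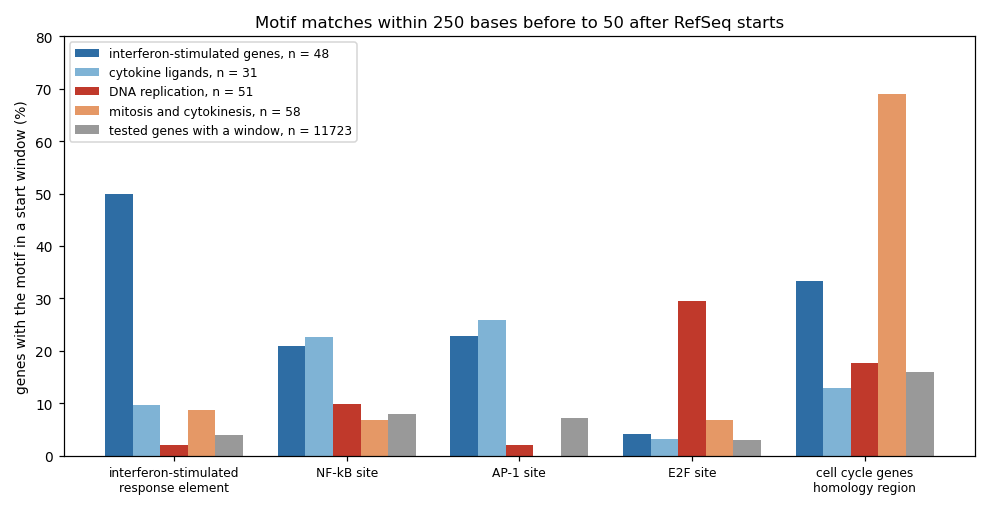
Bars give the percentage of genes with at least 1 match to each motif in the windows from 250 bases before to 50 after a RefSeq start, for 4 gene lists and for the 11723 tested genes with a window. The interferon-stimulated response element reaches 50% in the interferon-stimulated genes and the homology region 69.0% in the mitosis genes, against 3.96% and 15.9% of tested genes.

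The regulators of the G1 phase were split, with 15 of 29 higher and 9 lower (median 0.54). Ccnd1, cyclin D1, had 572, 535 and 492 with VSG159, against 202, 194 and 166 with vehicle (log2 1.51, SE 0.09), E2f8 rose by 2.37 (SE 0.16) and Tfdp1, the partner of E2F factors, by 1.96 (SE 0.10). Myc had 29.7, 43.5 and 52.1 with VSG159, against 208, 212 and 221 with vehicle, and was lower at -2.39 (SE 0.24, adjusted p = 6.89e-06) while the genes of growth rose, although another probe of it gave -0.48 and was not called. The antagonists of Myc were lower as well, with Mxd1 at -3.26 (SE 0.18), Mxi1 at -2.45 (SE 0.10, and -0.66 on another probe, called) and Mnt at -1.24 (SE 0.10). Of 27 CDK inhibitors and growth arrest genes, 14 fell and 4 rose (median -0.83). Ccng2 was lower at -2.51 (SE 0.16), Gadd45g at -2.05 (SE 0.11) and Ndrg1 at -1.91 (SE 0.11), while Cdkn3, a phosphatase that is itself a cell cycle gene, rose by 1.10 (SE 0.13). Of 31 genes of the BCL2 family, caspases and IAPs, 15 fell and 2 rose (median -0.33), with falls on both sides of apoptosis, in the killer Bcl2l11 (BIM) at -2.42 (SE 0.11) and in the protector Mcl1 at -1.27 (SE 0.11).

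Ribosome biogenesis was the most uniform list after the GTPases. Of 55 tested genes, 53 rose and none fell (median 1.55). Dkc1, the pseudouridine synthase dyskerin, rose by 3.42 (SE 0.16), and Nop56, a core protein of small nucleolar particles, had 3544, 3556 and 3400 with VSG159, against 776, 692 and 801 with vehicle (log2 2.21, SE 0.09). Utp20 rose by 2.85 (SE 0.12), Nat10 by 2.67 (SE 0.11), and Tsr1 by 2.61 (SE 0.09). Exosc6, a subunit of the RNA exosome, rose by 3.23 (SE 0.16).

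The counts of these lists were repeated with fewer arrays. Without VSG159 replicate 3, which lies on the other slide, 49 replication genes were higher and 2 lower, 62 mitosis genes were higher and 1 lower, and 53 ribosome biogenesis genes were higher. In the same fit 57 antiviral genes and 30 cytokine ligands were lower. With slide and array position as covariates, 45 replication, 52 mitosis and 45 ribosome biogenesis genes were higher and none was lower, and 18 of 40 cytokine ligands were lower. As that fit only assumes a straight-line trend with position, these counts do not separate group from position within slide 1.

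Of 40 genes of sterol and fatty acid synthesis, 21 rose and 5 fell (median 0.47). Fasn, the fatty acid synthase, had 2856, 2961 and 2706 with VSG159, against 776, 532 and 576 with vehicle (log2 2.20, SE 0.13), and Acaca, the enzyme before it, rose by 1.09 (SE 0.09), while the sterol enzyme Sqle was lower at -0.47 (SE 0.09). Of 41 genes of LXR targets, lipid uptake, storage and oxidation, 11 rose and 18 fell (median -0.28). Fabp4, a fatty acid carrier, rose by 2.68 (SE 0.13), and the lipid droplet genes Hilpda and Plin2 were lower at -2.93 (SE 0.15) and -1.60 (SE 0.10). Of 47 genes of mitochondrial respiration, 27 rose and 1 fell (median 0.31), among them Idh3a, of the citric acid cycle, at 2.04 (SE 0.16) and Ndufv1, of complex I, at 0.73 (SE 0.09, and 0.06 on another probe, not called).

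Of 43 genes of glycolysis and HIF-1 targets, 26 fell and 6 rose (median -0.60). The falls were led by targets of the hypoxia factor outside glycolysis. P4ha2, a collagen prolyl hydroxylase, had 28.2, 17.7 and 29.0 with VSG159, against 362, 344 and 330 with vehicle (log2 -3.82, SE 0.20), Adm, adrenomedullin, was lower at -3.33 (SE 0.18) and Vegfa at -2.47 (SE 0.12). Slc2a6, a lysosomal sugar transporter of activated macrophages, rose by 0.94 (SE 0.07). Of 32 NRF2 and antioxidant genes, 8 rose (25%) and 7 fell (21.9%), with a median of -0.01. Over all tested genes the shares were 19.1% and 25%. Hmox1, which breaks down haem, had 4580, 3779 and 4826 with VSG159, against 23424, 25152 and 25276 with vehicle (log2 -2.49, SE 0.11), while Sod2, the mitochondrial superoxide dismutase, rose by 1.23 (SE 0.10).

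Of 22 iron genes, 5 rose (22.7%) and 7 fell (31.8%), with a median of -0.14. Over all tested genes the shares were 19.1% and 25%. Tfrc, the transferrin receptor that takes iron in, rose by 1.12 (SE 0.11), and the exporter Slc40a1 was at least 2.11-fold lower. Of 45 genes of the unfolded protein and integrated stress responses, 18 rose and 10 fell (median 0.17). The rises included the serine and one-carbon enzymes Phgdh at 0.94 (SE 0.08) and Shmt2 at 1.12 (SE 0.10, and 0.28 on another probe, not called), and the falls the stress genes Nupr1 at -2.49 (SE 0.12) and Ppp1r15a at -1.64 (SE 0.09). Of 39 lysosomal proteins, 21 fell and 4 rose (median -0.31), among them Gpnmb at -1.56 (SE 0.11) and Npc1, a cholesterol transporter, at -1.06 (SE 0.12).

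VSG159 replicate 3 stood apart from replicates 1 and 2 for some of the strongest rises. Fkbp11, a chaperone of the secretory pathway, had 194, 196 and 40.4 with VSG159, against 5.61, 1.98 and 5.90 with vehicle, and Dnase1l3, a nuclease of macrophages and dendritic cells, had 188, 139 and 13.3 against 4.84, 5.57 and 6.97. For Dnase1l3 replicate 3 alone was not called (log2 1.21, adjusted p = 0.459), whereas replicates 1 and 2 gave 4.82. Replicate 3 lay on another slide, and the part of the slide in this gap was not tested.

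The last question was how VSG159 differed from the other steroids at the same dose and times. All 3 differences were made, and p-values were adjusted over the genes of each. Against VSG158 no gene was called (0 of 19499, and 1203 or 6.17% at an unadjusted p below 0.05, limma), and against FF none was called either (1177 or 6.04% at that threshold). That does not show that they act alike. The median 95% interval reached 0.38 on the log2 scale to either side. For Hp the difference with VSG158 was -0.17 (95% interval -0.58 to 0.24) and with FF -0.12 (-0.53 to 0.29). For Il6 it was -0.39 with VSG158 (-0.65 to -0.12), unadjusted p = 0.00821 by limma and adjusted p = 0.803, and -0.13 with FF (-0.39 to 0.14). For Mertk the intervals were wide, at 0.07 with VSG158 (-0.92 to 1.07). Without VSG159 replicate 3, 34 genes were called against VSG158 and 96 against FF, and without VSG158 replicate 1, 35 were called against VSG158.

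Against DEX, 1084 genes were called (5.56%), 281 higher with VSG159 (1.44%) and 803 lower (4.12%). Il1b averaged 1582 ± 331 with VSG159 and 5369 ± 514 with DEX (SD, n = 3 each, log2 -1.78, 95% interval -2.10 to -1.46). Il33 was lower at -1.84 on the log2 scale (-2.40 to -1.28), Il6 at -1.38 (-1.64 to -1.11) and Nos2 at -1.24 (-1.51 to -0.97). Hp was higher, at 2256 ± 556 with VSG159 and 1073 ± 90.9 with DEX (log2 1.05, 0.63 to 1.46), as were Fbxo5 at 1.33 (1.08 to 1.58), the histone genes H2ac4 at 1.49 (1.12 to 1.85) and H1f5 at 1.46 (1.14 to 1.78), and Tk1 at 0.66 (0.39 to 0.92). Not called were Fkbp5 at -0.13 (-0.43 to 0.16), Tnf at -0.33 (-0.58 to -0.07), Ccl2 at -0.02 (-0.26 to 0.22) and Irf1 at -0.17 (-0.38 to 0.05).

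By list, 28 of 70 mitosis genes and 21 of 61 replication genes were higher with VSG159 than with DEX and none was lower, while 13 of 40 cytokine ligands, 17 of 43 glycolysis and HIF-1 genes and 7 of 21 chemokines were lower and none was higher. Of the 65 antiviral genes 17 were lower and 1 higher, and of 55 ribosome biogenesis genes 2 were higher. The 10 largest differences in the positive direction included, beside H2ac4 and H1f5, Brip1os, Olfr1043, Cercam, Igdcc4, Taar9, Rhoj, Ccdc15 and Stmn4, with differences of 1.42 (Stmn4) to 2.60 (Brip1os). Olfr1043 averaged 47.0 with VSG159 and 9.34 with DEX, and the other 7 were dim, at 4.33 to 8.31 with VSG159 and 1.07 to 2.51 with DEX. Among the 10 largest differences in the negative direction, Olfr516, Stmnd1, Myod1 and Cdhr4 had a value on VSG159 replicate 3 alone among the VSG159 arrays. The others were dim with VSG159, with Themis above background on none of the 3 VSG159 arrays and at 23.4 ± 29.3 with DEX (SD, n = 3). These counts were unstable. The total was 507 without VSG159 replicate 1, 194 without VSG159 replicate 2, 267 without DEX replicate 1, 209 without DEX replicate 3, 714 without FF replicate 2 and 659 without FF replicate 3, and it was 30 after median scaling and 196 on slide 2 alone, where 3 mitosis genes and 2 replication genes were called. Only VSG159 replicate 3 shares a slide with DEX, and position and group cannot be told apart there.

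**Figure D5:**
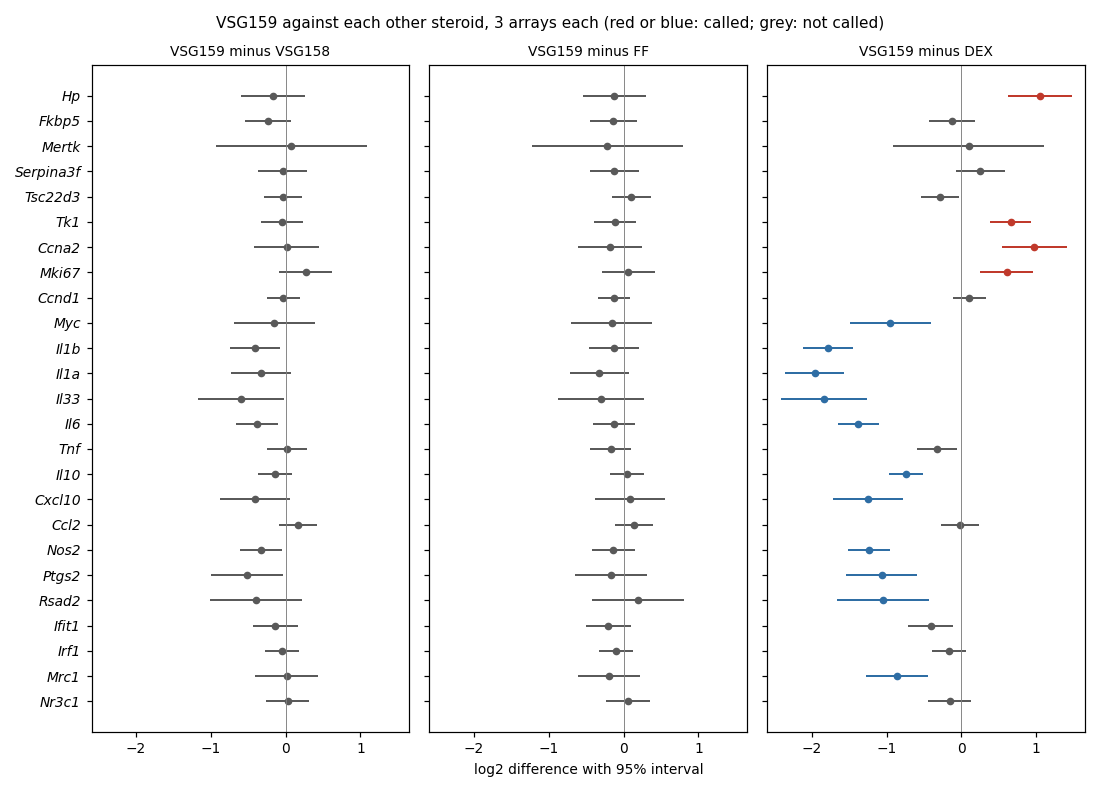
Points are log2 differences of VSG159 minus VSG158 (left), FF (middle) and DEX (right) for 25 genes, with lines for the 95% interval from the limma fit, coloured where called. All intervals for VSG158 and FF are grey, while Il1b, Il33, Il6 and Nos2 lie left of 0 and Hp, Tk1 and Ccna2 right of 0 against DEX.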

How the data were processed

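Per the file headers, the deposited scanner files hold the spot intensity after background subtraction and spatial detrending by Agilent Feature Extraction, not scaled between arrays. The deposited value table holds log2 values of the same arrays, whose normalization is not given in the sources used here; per the submitters' processing notes limma was used, with no version or role given. Here, control spots were dropped, flagged spots were set to missing (1847 missing values), spots of a probe were averaged, and log2 intensity minus the 75th percentile of the array was tested with limma 3.58.1 in R 4.3.3 on all 15 arrays with group as the only term. A probe was tested if well above background on at least 2 of 3 arrays of a group (28498 probes), and a gene was taken as its brightest tested probe (6268 of 19499 genes had several). Symbols were updated through RefSeq for 383 genes. A gene was called at a Benjamini-Hochberg adjusted p below 0.05. The number of arrays limits the precision, with a median SE of 0.173 on the log2 scale. The fit was tested on simulated data. Alternatives were other scalings, background corrections, filters, slide and position terms, a replicate block and leaving out each array. The numbers do not pair arrays, as the correlations of the deviations of VSG159 and vehicle arrays of the same number were -0.15, 0.05 and -0.42. The members, gene lists and tests were chosen with earlier results of these data known. The genes named were drawn, not in full, from the 30 largest rises and falls, the 12 largest bounds in each direction, up to 6 called members of each of 39 lists and up to 3 against their main direction, a list of key genes, the 10 largest differences from each steroid and the 8 named genes in which VSG159 replicate 3 differed most.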

Additional observations from a re-analysis of the deposited data

How the results depend on the processing

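For VSG159 against vehicle, leaving out 1 array gave 7291 (without VSG159 replicate 2) to 10150 genes (without VSG159 replicate 3), with 3186 to 4398 higher and 3921 to 5752 lower. Median scaling gave 4753 (2461 higher, 2292 lower), slide and array position gave 2828 (1533 higher, 1295 lower), and VSG159 replicate 3 alone, an alternative chosen after seeing the data, left 2769 lower. Cd48 turned to -0.35 with slide and array position, and with the mean of all probes Cs turned to 0.13, Cxcl14 to -0.15, Gusb to -0.040 and Tlr4 to -0.28; the cause was not tested. The replicate block called 7978 genes, and the numbers share no pairing. Against VSG158, adjusting over the 3 differences together called 3 (1 higher, 2 lower), slide as a fixed block 34 (29 higher, 5 lower), and leaving out 1 array 0 to 35 (0 to 29 higher, 0 to 31 lower). Against FF, adjusting together called 8 (2 higher, 6 lower), slide as a fixed block 1 (lower), and leaving out 1 array 0 to 96 (0 to 82 higher, 0 to 14 lower). Against DEX, adjusting together called 312 (87 higher, 225 lower), the values of the deposited table gave 384 (132, 252), median scaling 30 (8, 22), no filter on dim probes 159 (53, 106), and normexp with quantile normalization gave 430 (155, 275), quantile normalization 675 (437 lower), the replicate block 487 (149, 338), slide 2 alone 196 (76, 120), slide as a fixed block 670 (389 lower) and slide as a random block 223 (79, 144). Leaving out 1 array there gave 194 to 1578 genes, 60 to 370 higher and 127 to 1223 lower.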
